A study of Mus musculus with 14 samples.

Results

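Splenic cTregs and eTregs from control mixed BM chimeras were compared by ATAC-seq, which counts transposase insertions in open chromatin. The comparison rests on 6 of the 14 libraries of the series, 3 of control cTregs and 3 of control eTregs, and on all 61366 regions that had enough counts to be tested out of 67254. The control Tregs were CD45.2+ and came from Foxp3CreAtg14+/fl BM, which carries a single floxed allele of Atg14 and a Cre driven from the Foxp3 locus, so that recombination is confined to Foxp3-expressing cells. This BM was mixed 1:1 with CD45.1+ WT spike BM and given to sublethally irradiated Rag1-/- hosts, which lack T and B cells of their own, and was left for 6–8 weeks. Both control groups share this genotype, the spike BM and the irradiated host, and differ in the sort gate: cTregs were CD44-CD62L+ and eTregs CD44+CD62L- per the labels, which the methods describe as low or high levels of each marker. Atg14-deficient cTregs (n = 4) and eTregs (n = 4), from Foxp3CreAtg14fl/fl BM under the same scheme, are used below for comparison. They share no library with the control contrast, but entered the same model and so helped to set its filter and its estimate of the spread. Per the study, 3 control and 4 Atg14-deficient chimeras gave the cells of both states, so the 3 cTreg and 3 eTreg libraries came from the same control mice, although no source used here says in words that a shared number marks a shared mouse. The fit behind the calls does not pair the libraries. Values from a fit with the replicate number as a block are given beside the main totals and most group counts. For single genes they are mostly left out, although some of those counts moved as well. Maf went from 1 more and 0 less accessible to 5 and 3, and Icos from 0 and 2 to 0 and 6. A count without a block value was thus not shown to be stable to pairing. An age range is given for intact mice of these genotypes, and none specifically for the chimeras.

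Central Tregs circulate through lymphoid organs and keep a resting program, with CCR7 for entry into lymph nodes and TCF-1, LEF-1, SATB1, BACH2 and FOXP1 among their transcription factors. Effector Tregs are antigen-experienced, express CD44 and produce suppressive molecules such as IL-10, and BLIMP-1 (encoded by Prdm1) is a well known factor of this state. Open chromatin away from gene starts usually marks enhancers, where such factors bind, and members of the AP-1 and TCF/LEF families recognize short, distinct DNA sequences.

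Sequences from 9 regions are shown as examples of the motifs searched for below. Each is the central 200 bp of a region on the + strand of GRCm38, read from the RefSeq genome, 5′ to 3′, with AP-1 matches (TGANTCA, the same letters on either strand) and TCF/LEF matches (CTTTGAA or CTTTGAT on either strand) in capitals. The first 5 were more accessible in control eTregs: the region with the smallest p, nearest to Fbxl5, and the regions with the smallest p assigned to 4 listed genes, picked because they hold an AP-1 match. The Zeb2 region lies far from its gene, 1190 kb from the start, in intergenic sequence, and its call was lost without control cTreg replicate 1 (adjusted p = 0.0997, edgeR) or control eTreg replicate 3 (0.113).
Fbxl5, chr5:43728704-43728903: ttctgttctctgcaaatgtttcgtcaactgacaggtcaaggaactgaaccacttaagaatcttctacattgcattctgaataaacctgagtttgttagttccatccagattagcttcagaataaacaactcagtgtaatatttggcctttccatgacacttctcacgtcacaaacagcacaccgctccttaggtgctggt
Il10, chr1:131021570-131021769: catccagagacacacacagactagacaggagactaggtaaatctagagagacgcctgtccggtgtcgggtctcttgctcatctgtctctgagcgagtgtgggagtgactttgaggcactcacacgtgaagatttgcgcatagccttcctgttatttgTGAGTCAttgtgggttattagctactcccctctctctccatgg
Tbx21, chr11:97104209-97104408: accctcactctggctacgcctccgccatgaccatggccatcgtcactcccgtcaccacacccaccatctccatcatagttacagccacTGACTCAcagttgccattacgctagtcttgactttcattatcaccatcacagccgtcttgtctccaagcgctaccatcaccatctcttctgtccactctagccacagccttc
Zeb2, chr2:46307668-46307867: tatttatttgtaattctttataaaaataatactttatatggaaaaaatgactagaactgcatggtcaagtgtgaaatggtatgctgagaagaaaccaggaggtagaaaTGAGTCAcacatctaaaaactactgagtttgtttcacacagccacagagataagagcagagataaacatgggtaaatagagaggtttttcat
Itga1, chr13:115107529-115107728: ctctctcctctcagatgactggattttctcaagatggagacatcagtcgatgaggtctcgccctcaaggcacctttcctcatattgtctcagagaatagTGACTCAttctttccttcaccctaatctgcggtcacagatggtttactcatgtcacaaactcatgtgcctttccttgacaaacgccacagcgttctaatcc
The other 4 were less accessible in control eTregs and were all picked in the same way for a TCF/LEF match. Regions picked for a match say nothing about how common it is or what differs between the directions.
Nrp1, chr8:128473937-128474136: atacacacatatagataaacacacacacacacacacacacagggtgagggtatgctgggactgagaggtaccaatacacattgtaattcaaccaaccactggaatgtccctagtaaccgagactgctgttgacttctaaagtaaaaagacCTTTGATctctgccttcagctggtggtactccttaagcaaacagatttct
Bach2, chr4:32343859-32344058: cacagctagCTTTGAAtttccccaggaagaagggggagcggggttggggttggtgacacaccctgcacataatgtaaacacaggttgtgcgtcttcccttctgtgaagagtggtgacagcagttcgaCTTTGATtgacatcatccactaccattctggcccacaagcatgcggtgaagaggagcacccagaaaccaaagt
Foxp1, chr6:99309473-99309672: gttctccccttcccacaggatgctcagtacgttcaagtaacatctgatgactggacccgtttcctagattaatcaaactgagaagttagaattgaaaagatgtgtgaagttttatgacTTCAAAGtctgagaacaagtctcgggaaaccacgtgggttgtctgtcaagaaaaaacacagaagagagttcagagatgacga
Ets1, chr9:32723091-32723290: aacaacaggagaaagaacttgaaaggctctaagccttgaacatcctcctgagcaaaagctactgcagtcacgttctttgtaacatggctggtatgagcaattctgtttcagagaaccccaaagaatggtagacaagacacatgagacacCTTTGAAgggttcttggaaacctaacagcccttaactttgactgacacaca
The Bach2 window holds 2 TCF/LEF matches and the Nrp1, Foxp1 and Ets1 windows 1 each, whereas the Fbxl5 window holds neither motif.

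Total counts in the 6 libraries ranged from 2242983 (control cTreg replicate 3) to 5548189 (control eTreg replicate 3), and the median tested region had a mean of 25.0 counts per control library. Replicates of a state correlated at 0.857 to 0.911 (Pearson's r of log2 CPM across regions). Levels are given as CPM, the count of a region scaled by the total of its library. The identity of the cells was checked at marker genes. Promoter regions of 3 T cell genes summed to 45.5–56.2 CPM in cTregs and 42.7–63.8 CPM in eTregs, and 0 of 21 T cell marker regions were called (edgeR; 3 at an unadjusted p below 0.05; 0 by DESeq2). The single tested Foxp3 region lay in an intron 2.14 kb from the nearest annotated start and had 24.4, 18.9 and 19.6 CPM in cTregs and 14.3, 19.9 and 17.5 CPM in eTregs. No promoter region was found for the 5 myeloid markers, and none of their 6 tested regions was called (1 at an unadjusted p below 0.05; 0 by DESeq2). The 2 CD8 T cell markers stood apart: the Cd8b1 promoter had 15.6, 15.8 and 16.9 CPM in cTregs against 6.83, 2.62 and 3.6 CPM in eTregs (log2 fold change -1.92 ± 0.401 SE, adjusted p = 0.00471), and 2 of the 5 CD8 marker regions were called, both less accessible in eTregs. The second, nearest to Cd8a, had 2.44, 3.83 and 0.892 CPM in cTregs and 0.325, 0.0 and 0.0 CPM in eTregs (adjusted p = 0.0192, edgeR), so its fitted fold change is not a measured size. Its call was lost without control cTreg replicate 1 (0.057) or 2 (0.0646) or control eTreg replicate 2 (0.0761) or 3 (0.0834). The remaining CD8 marker regions, all nearest to Cd8a, had log2 fold changes of -2.46, -0.32 and -0.07 and were not called. Of the B cell markers, 1 of 15 regions was called, in an intron of Pax5, at 3.91, 3.83 and 3.57 CPM in cTregs and 17.9, 15.2 and 13.7 CPM in eTregs, while their summed promoter level was 7.82–12.4 CPM in cTregs and 3.97–12.4 CPM in eTregs. Natural killer cell markers had 2 of 26 regions less accessible (both nearest to Eomes), erythroid markers 1 of 8 less accessible, nearest to Gata1, and conventional helper T cell markers 1 of 46 more accessible (nearest to Il17a) and 2 less accessible (both nearest to Ifng), where a fit with the replicate number as a block called 2 erythroid regions less and 4 helper T cell regions more accessible. Over all tested regions, 2.01% were called more and 3.29% less accessible by edgeR, or 4.67% and 5.70% with the block. An unadjusted p below 0.05 was reached by 19.9% of them without the block. Several of the marker counts lie near these shares. The part of other cell types in the results below was not tested.

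Control eTregs and cTregs differed at 3251 regions, 5.30% of those tested, by edgeR's quasi-likelihood test with the Benjamini-Hochberg adjusted p required to be below 0.05 and the fold change to exceed 0.5 on the log2 scale. Of these, 1235 (2.01% of tested regions) were more accessible in eTregs and 2016 (3.29%) less accessible. The median log2 fold change was 1.52 among the former (quartiles 1.13 and 2.10) and -1.61 among the latter (quartiles -2.14 and -1.18), and 349 and 608 regions changed more than 4-fold. These sizes come from the libraries that chose the regions, at a fold-change cutoff, which favors large values. Between the Atg14-deficient states the same regions had medians of 1.14 and -1.18. Over all tested regions the median was -0.01. In bulk cells a lower count can mean fewer cells with an open region or a less open region in every cell, and these cannot be told apart. Regions with higher counts were called more often, with 0.632% more accessible and 1.53% less accessible among the 15342 regions of lowest mean CPM, against 3.02% and 3.67% among the 15342 of highest mean CPM. With the replicate block 6367 regions (10.4%) were called, 2868 more accessible (4.67%) and 3499 less accessible (5.70%). The number of calls was 6760 when each library's percent of counts at promoters entered as a covariate and 1740 with at least 10 counts required in every library. The number also changed when single libraries were left out. It was 1105, 3745 and 1574 without control cTreg replicates 1, 2 and 3, and 1366, 1696 and 2222 without control eTreg replicates 1, 2 and 3. Leaving a library out also leaves fewer to test with, so a lower count or a lost call need not mark that library as unusual. Leaving out each library in turn kept 742 regions called in the same direction every time, 253 more accessible and 489 less accessible. The split between directions moved most when the promoter share of counts was added as a covariate, from 38.0% to 51.7% more accessible.

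**Figure D1:**
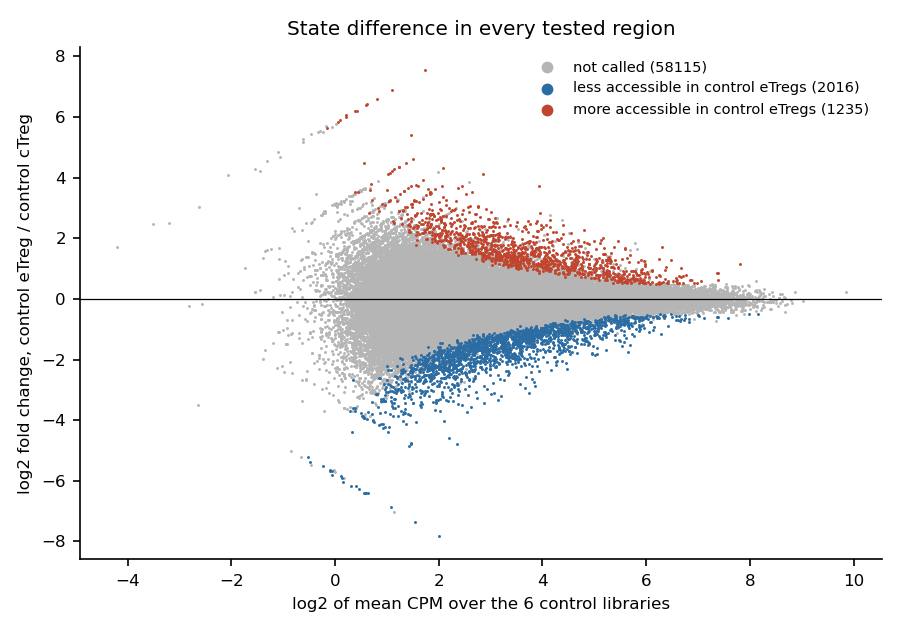
The log2 fold change of control eTregs over control cTregs (y axis) is plotted against the log2 of the mean CPM over the 6 control libraries (x axis), 1 point per tested region. The 1235 red and 2016 blue points are the regions called more and less accessible in eTregs, and the diagonal rows at the left are regions with 0 counts in all libraries of a state, whose fitted fold change is not a measured size.

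The Atg14-deficient libraries differed between states at 6021 regions (9.81%), 2707 more accessible in eTregs (4.41%) and 3314 less accessible (5.40%), and at 9495 with the replicate block. Of the 1235 regions more accessible in control eTregs, 722 (58.5%) were also called more accessible in Atg14-deficient eTregs and 0 were called in the opposite direction. Of the 2016 less accessible regions, 1302 (64.6%) were called less accessible and 0 the opposite way. These shared calls made up 62.3% of the control list and 33.6% of the Atg14-deficient list. With each genotype fitted on its own 2 groups, so that no library entered both fits, the first share was 57.2%. The sign of the state difference was the same in 99.4% of control regions that opened and in 99.1% of those that closed in eTregs, against 73.3% of all tested regions. The median log2 fold changes of the control regions in Atg14-deficient cells were 1.14 and -1.18. On a log2 scale relative to all tested regions, the regions more accessible in control eTregs had mean levels of -0.22, -0.47, -0.43 and -0.08 in the 4 Atg14-deficient cTreg libraries and 0.94, 0.78, 0.78 and 0.72 in the 4 Atg14-deficient eTreg libraries. The regions less accessible in control eTregs had 0.92, 0.93, 1.03 and 0.57 in Atg14-deficient cTregs and -0.38, -0.14, -0.23 and -0.52 in Atg14-deficient eTregs. The 2 groups did not overlap in either set. Among the libraries that chose the sets, control cTreg replicate 2 lay nearest to eTregs, at -0.14 for the more accessible regions (-0.39 and -0.66 in the other two) and 0.58 for the less accessible regions (0.89 and 1.05). A state difference that itself differed between genotypes was called at 0 regions by edgeR (1994 regions, 3.25%, at an unadjusted p below 0.05) and at 0 by DESeq2, and at 1 region with the replicate block. That region, named after its value was seen, was nearest to Epas1 (chr17:86709765-86710262), with a difference of 1.14 on the log2 scale and an adjusted p of 0.00402 by edgeR.

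Regions less accessible in eTregs lay mostly away from gene starts, whereas the promoter share of the more accessible regions was near that of all tested regions. Promoter regions (centre from 1000 bp before to 100 bp after a protein-coding start) were 16.4% of tested regions, 14% of those called more accessible and 5.80% of those called less accessible. Of 10062 promoters, 173 (1.72%) were more accessible in eTregs and 117 (1.16%) less accessible. Of 26164 introns, 558 (2.13%) were more and 1033 (3.95%) less accessible, and of 21601 intergenic regions 439 (2.03%) were more and 795 (3.68%) less accessible. Exons took 54 (1.55%) and 69 (1.97%) of 3495 regions. With distance from the nearest start the share of less accessible regions was 1.09% up to 1 kb, 2.99% from 1 to 10 kb, 3.85% from 10 to 50 kb, 4.83% from 50 to 100 kb and 4.64% beyond 100 kb, while the share of more accessible regions lay between 1.54% and 2.60%. Among promoters, those with over 60% GC were more accessible in 118 of 6212 and less accessible in 45, and those with less GC were more accessible in 55 of 3850 and less accessible in 72. The same class shares in Atg14-deficient cells were 6.17% more and 2.09% less accessible at promoters and 4.14% and 6.26% in introns. The promoter share is sensitive to GC content and to size: with GC-content loess offsets promoters took 8.49% of the regions called more accessible and 7.92% of the others, and at a log2 fold change beyond 1 they were 7.49% and 3.52%. Promoters held 42.6%, 41.3% and 45.8% of all counts in the cTreg libraries and 44.5%, 42.8% and 45.2% in the eTreg libraries, which overlapped (difference 0.953 percentage points, exact two-sided permutation p = 0.60, where 3 against 3 libraries cannot give a p below 0.10). The difference turned to -0.0288 percentage points without control cTreg replicate 2 and was 2.26 at the other end of the range.

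**Figure D2:**
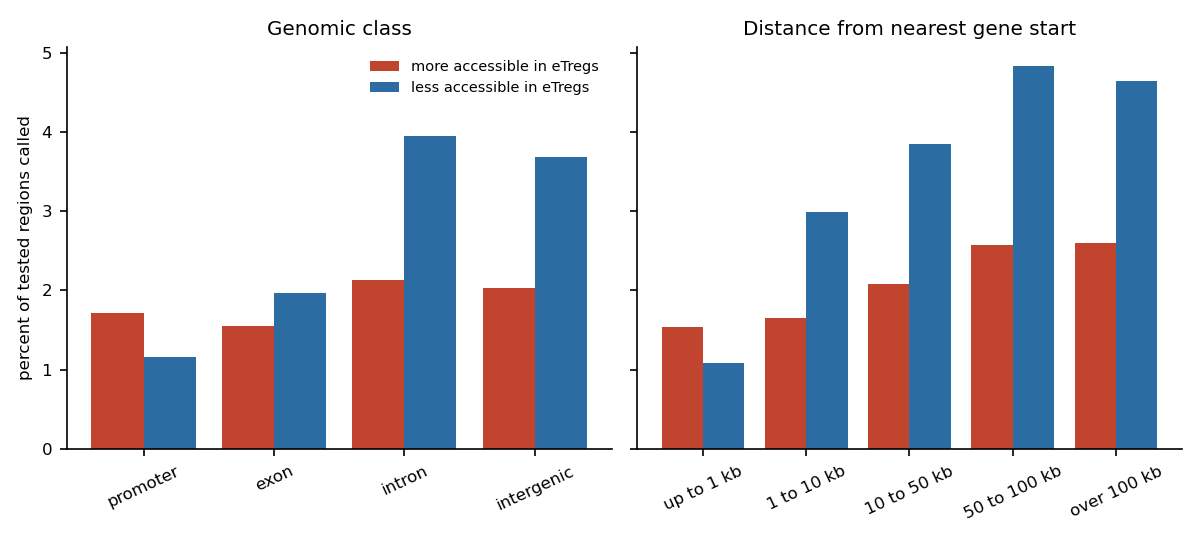
Bars give the percent of tested regions called more accessible (red) and less accessible (blue) in control eTregs, by genomic class on the left and by distance from the nearest protein-coding start on the right. Less accessible regions take 1.16% of promoters and 3.95% of introns, and more accessible regions 1.72% and 2.13%.

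Called regions were longer than tested regions as a whole, with a median length of 439 bp for more accessible and 406 bp for less accessible regions against 340 bp, and their median GC content was 48.0% and 47.1% against 49.4%. By chromosome, the share of more accessible regions ran from 0.899% on chromosome 11 to 2.92% on chromosome 18 among the autosomes, and was 0.976% on chromosome X. An unplaced GRCm38 scaffold had 11 of its 25 tested regions more accessible and 0 less accessible (edgeR), and its strongest region had 137, 134 and 145 CPM in cTregs against 368, 267 and 293 CPM in eTregs (log2 fold change 1.16 ± 0.146 SE).

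The share of regions with a short DNA motif differed between the directions, with the largest gaps in percentage points for AP-1 and TCF/LEF. Each was searched on both strands within the central 200 bp, a stretch could count for more than a single motif, and the shares are descriptions, without a test. AP-1 (TGANTCA), the site of Jun, Fos and BATF proteins, was present in 27.9% of more accessible regions, 8.98% of less accessible regions and 11.5% of all tested regions. TCF/LEF (CTTTGAA or CTTTGAT), the site of TCF-1 and LEF-1, showed the opposite order, with 6.15%, 21.4% and 8.58%. Read the other way, 4.85% of the 7087 regions with an AP-1 match were more accessible and 2.55% less accessible, against 1.64% and 3.38% of those without. Of the 5265 regions with a TCF/LEF match, 1.44% were more and 8.21% less accessible, against 2.07% and 2.82% of those without. NFAT (TGGAAA), the calcium-dependent factor downstream of the antigen receptor, was in 23.7% of more accessible, 15.9% of less accessible and 16.6% of all regions. ROR (TAGGTCA) was in 4.45%, 1.29% and 1.78%, and T-box (AGGTGTGA) in 2.11%, 1.09% and 1.28%. In the other direction, the GATA motif (AGATAAG) was in 1.94% of more accessible and 5.65% of less accessible regions against 2.53% of all, and RUNX (TGTGGTT) in 11.3% and 14.3% against 10.0%.

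CTCF (AGGGGGC), an insulator protein, was in 3.64% of more accessible and 3.03% of less accessible regions against 8.09% of all tested regions. SP (GGGCGG), a GC-rich promoter motif, was in 16.8% and 8.18% against 18.6%. ETS (AGGAAGT) was in 14.5% and 17.1% against 14.1%, KLF (GGGNGTG) in 16.3% and 21.4% against 19.1%, and IRF (GAAANNGAA) in 5.51% and 8.53% against 7.99%. NF-kappaB (GGGNNTTCC) was in 5.10% and 4.32% against 5.05%, FOX (TGTTTAC) in 3.40% and 3.52% against 3.02%, E-box (CAGCTG or CACCTG) in 26.8% and 29.5% against 27.2%, Nr4a (AAAGGTCA) in 2.11% and 2.18% against 1.39%, and CRE (TGACGTCA) in 1.38% and 0.794% against 0.934%. Outside promoters, AP-1 was in 31.5% of more and 9.37% of less accessible regions (13.1% of tested), and TCF/LEF in 7.06% and 22.5% (9.67% of tested). In the lists called from the Atg14-deficient libraries, AP-1 was in 23.2% of more and 9.26% of less accessible regions and TCF/LEF in 6.58% and 17.9%. Some other motifs did not keep their control pattern there. SP was in 24.9% and 8.09%, above the 18.6% of all tested regions in the more accessible direction, RUNX in 11.5% and 12.3%, KLF in 19.7% and 19.8%, and CRE in 1.26% and 1.24%. In the central 100 bp, AP-1 was in 18.8% and 4.71% (6.93% of tested) and TCF/LEF in 3.16% and 12.8% (4.55%).

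**Figure D3:**
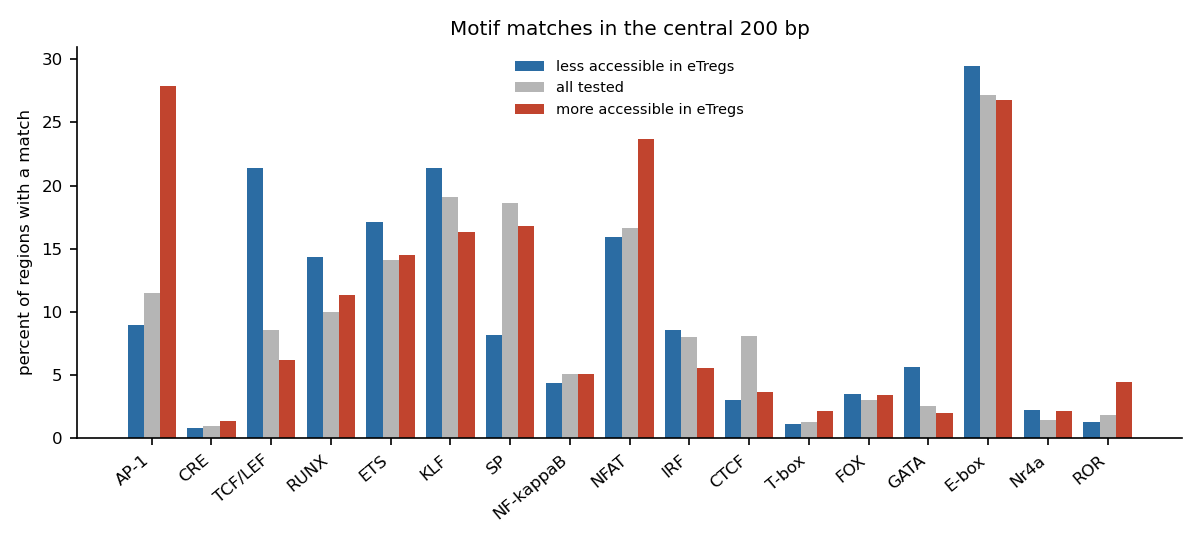
Bars give the percent of regions with a match to each motif in the central 200 bp, for regions less accessible in control eTregs (blue), all tested regions (gray) and regions more accessible in control eTregs (red). AP-1 stands at 27.9% in the red and 8.98% in the blue bar, and TCF/LEF at 6.15% and 21.4%.

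Gene groups are described next by the regions nearest to their genes. A region was assigned to the protein-coding gene with the nearest start, which need not be the gene it acts on, and some genes belong to more than 1 group. The groups and their members were chosen with earlier results of these data known. Their shares are therefore descriptions and no independent evidence. Of 111 called regions named by the rules below, 60 kept their call with each control library left out in turn, and losses are given beside the values of those described. No such check is given for the Klf2 region 157 bp from its start or the Il10 region 9.15 kb upstream, which were added later. The counts are read against 2.01% more and 3.29% less accessible among all tested regions, at the thresholds above. The libraries of the 2 states did not overlap in 98.9% of regions called more and 97.7% of regions called less accessible. Over all tested regions, every control eTreg library was above every control cTreg library in 12.2% and below in 13.9%. Non-overlap at a called region is therefore usual. Counts with the replicate block, where given, are read against 4.67% and 5.70%, and the block kept the call of each of the 111 called regions named by the rules.

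Cd44, whose protein was part of the sort gate, was taken first. It had 1 of 23 regions more and 3 less accessible. The more accessible one lay 55.5 kb upstream, with 42.5, 53.4 and 25.0 CPM in cTregs and 88.5, 82.4 and 73.2 CPM in eTregs (log2 fold change 0.98 ± 0.189 SE, adjusted p = 0.00264), while the Cd44 promoter had 22.5, 18.0 and 18.7 CPM and 27, 24.7 and 19.1 CPM (adjusted p = 0.598). The distal region kept its call when any of the 6 libraries was left out.

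Lymphoid homing and resting-state surface genes had 17 of 105 regions less accessible in eTregs (16.2%) and 0 more accessible (edgeR; 45 regions at an unadjusted p below 0.05 in either direction; DESeq2 called 20 less and 1 more accessible, and the replicate block 25 and 2). The median log2 fold change over the group was -0.66, and 6 of the 9 genes with a region had a call. Ccr7, the chemokine receptor for entry into lymph nodes, had 4 of 16 regions called, among them its promoter at 38.4, 28.7 and 23.6 CPM in cTregs and 8.78, 13.6 and 11.0 CPM in eTregs (log2 fold change -1.44 ± 0.286 SE, adjusted p = 0.00315). All 3 eTreg libraries were below the lowest cTreg library there. S1pr1, the receptor for egress along sphingosine-1-phosphate, had 3 of 36 called, the strongest 1.04 kb from the start at 19.8, 18.4 and 12.5 CPM against 2.60, 4.2 and 6.67 CPM. Il7r, the receptor for the survival cytokine IL-7, had 3 of 15 called, the strongest at 47.4, 31.1 and 24.1 CPM against 17.6, 13.1 and 13.9 CPM (log2 fold change -1.23 ± 0.242 SE). Dapl1 had 3 of 15 and Treml2 1 of 4 called. The Il7r call was lost without control cTreg replicate 1 (adjusted p = 0.0614), and the Treml2 promoter call (9.29, 7.66 and 18.3 CPM against 1.95, 4.46 and 4.33 CPM) without control cTreg replicate 3 (0.144) or control eTreg replicate 1 (0.107).

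Transcription factors of the resting state, a group chosen with earlier results of these data known, had the most called regions. Of 352 regions, 62 (17.6%) were less accessible in eTregs and 2 (0.568%) more accessible, with a median log2 fold change of -0.55, and 10 of 12 genes had a less accessible region. In Atg14-deficient cells 59 were less and 8 more accessible, and with the replicate block the control counts were 89 and 5. Satb1, a chromatin organizer, had 17 of 43 regions less and 1 more accessible. Its strongest region, 75.3 kb from the start, had 12.5, 9.57 and 23.2 CPM in cTregs and 1.30, 2.36 and 1.44 CPM in eTregs (log2 fold change -3.09 ± 0.426 SE, adjusted p = 0.000136). The called Satb1 regions ran over 446 kb (chr17:51732650-52178376), and the larger of its promoter regions had 74.8, 68.9 and 82.9 CPM against 46.5, 43.0 and 52.3 CPM (log2 fold change -0.67 ± 0.154 SE), a call lost without control eTreg replicate 2 (adjusted p = 0.0562). Bach2, a repressor of effector genes, had 10 of 53 regions less and 1 more accessible, the strongest in its intron at 38.4, 27.3 and 28.5 CPM against 8.46, 14.2 and 9.37 CPM (log2 fold change -1.56 ± 0.257 SE). Foxp1, a forkhead factor of quiescent T cells, had 11 of 55 less accessible, the strongest at 38.6, 37.1 and 25.0 CPM against 12.4, 8.40 and 13.7 CPM. In each of these strongest regions the 2 states did not overlap, as in nearly all called regions.

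Lef1 had 5 of 33 regions less accessible, the strongest in an intron at 5.13, 5.27 and 6.69 CPM in cTregs and 1.95, 0.525 and 1.08 CPM in eTregs (log2 fold change -2.26 ± 0.50 SE, adjusted p = 0.00735). Tcf7, which encodes TCF-1, had 2 of 13 less accessible. Its called promoter region had 5.87, 7.18 and 8.03 CPM against 1.30, 1.05 and 2.70 CPM (log2 fold change -1.96 ± 0.571 SE, adjusted p = 0.0391), a call that was lost without any of control cTreg replicates 1, 2 or 3 (0.0911, 0.0698 and 0.107) or control eTreg replicates 1 or 2 (0.139 and 0.146). Klf2, the factor that drives S1pr1 transcription, had 4 of 11 less accessible, and the region 157 bp from its start had 148, 97.2 and 173 CPM against 76.8, 80.3 and 102 CPM (log2 fold change -0.68 ± 0.157 SE, adjusted p = 0.011). At that region the highest eTreg library was above the lowest cTreg library. Klf3 had 5 of 28, Ets1 5 of 51, Zeb1 2 of 10 and Myb 1 of 12 less accessible. Foxo1, a factor of quiescent T cells, had 0 of 36 and Id3 0 of 7 called, with median log2 fold changes of -0.24 and -0.08, and 1 Foxo1 region was less accessible with the replicate block.

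Transcription factors of the effector state were called at shares near those of all tested regions (2.01% more and 3.29% less accessible) in the fit without the block. Of 358 regions, 9 (2.51%) were more and 16 (4.47%) less accessible, with a median log2 fold change of 0.07, and with the replicate block 24 were more and 29 less accessible. Tbx21, which encodes T-bet, had 2 of 8 regions more accessible, both in its introns. The stronger had 0.489, 1.68 and 0.0 CPM in cTregs and 6.51, 9.18 and 3.97 CPM in eTregs (log2 fold change 2.92 ± 0.705 SE, adjusted p = 0.0137), and 3 of its 6 libraries were each needed for the call (adjusted p = 0.0922 without control cTreg replicate 1, 0.0547 without control cTreg replicate 3 and 0.0661 without control eTreg replicate 2). Prdm1 had 2 of 28 more accessible, the stronger 246 kb away at 0.489, 1.91 and 1.78 CPM against 6.51, 9.97 and 7.21 CPM (log2 fold change 2.52 ± 0.513 SE, adjusted p = 0.00394). Its promoter had 63.1, 47.4 and 64.2 CPM against 62.5, 60.4 and 60.6 CPM, so the states overlapped there while they were apart at the distal region. Nfil3 had 2 of 9 more accessible, an intron region at 10.0, 12 and 10.3 CPM against 20.8, 17.1 and 31.9 CPM (log2 fold change 1.12 ± 0.297 SE), a call lost without control cTreg replicate 1 (0.117) or 3 (0.0752) or control eTreg replicate 1 (0.0533) or 3 (0.17). Maf, Zeb2 and Id2 had 1 more accessible region each, of 54, 19 and 40 tested.

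The less accessible regions of that group, whose share was near the 3.29% of all tested regions, were spread over 6 genes. Irf4, which the antigen receptor induces, had 4 of 24 regions less accessible, the strongest in an intron of the neighboring Exoc2 at 8.31, 3.83 and 2.68 CPM in cTregs and 0.651, 0.525 and 0.721 CPM in eTregs (adjusted p = 0.0055, and 0.0821 without control cTreg replicate 1). Bhlhe40 had 4 of 38 less accessible, the strongest, in an intron of Itpr1, at 14.7, 12.9 and 12.5 CPM against 2.60, 4.72 and 2.52 CPM (log2 fold change -2.03 ± 0.345 SE, adjusted p = 0.000824). Gata3 had 3 of 49, Bcl6 3 of 12, Rora 1 of 25 and Id2 1 of 40 less accessible. Batf had 0 of 11, Runx2 0 of 33, Ikzf3 0 of 4 and Pparg 0 of 1 called in either direction, and 1 Runx2 region was more accessible with the replicate block.

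Treg identity genes had 4 of 151 regions more and 10 less accessible (2.65% and 6.62%), with a median log2 fold change of -0.22, and with the replicate block 8 and 16. Ikzf2, which encodes Helios, had 2 of 37 more and 1 less accessible, the latter 5.15 kb from the start at 34.7, 36.1 and 25.9 CPM in cTregs and 13.7, 17.6 and 11.5 CPM in eTregs (log2 fold change -1.20 ± 0.227 SE, adjusted p = 0.0022). Ctla4, an inhibitory receptor, had 1 of 24 more and 4 less accessible. Its promoter had 56.5, 47.9 and 48.6 CPM against 35.8, 35.2 and 33.3 CPM (log2 fold change -0.56 ± 0.17 SE, adjusted p = 0.0497), a call lost in turn without each of control cTreg replicates 1, 2 and 3 (0.224, 0.0555 and 0.0852) and control eTreg replicates 1, 2 and 3 (0.119, 0.114 and 0.131), although the 2 groups did not overlap. Nrp1 had 1 of 49 regions less accessible, at 44.5, 38.5 and 28.5 CPM against 12.4, 12.6 and 15.9 CPM (log2 fold change -1.45 ± 0.211 SE, adjusted p = 0.00021). Gpr83 had 3 of 6 less accessible, its promoter among them at 29.3, 41.4 and 48.6 CPM against 14, 11.8 and 19.8 CPM (log2 fold change -1.35 ± 0.257 SE). The Il2rb promoter, for the beta chain of the IL-2 receptor, was more accessible at 27.4, 27.5 and 21.8 CPM against 39.0, 46.4 and 39.8 CPM (adjusted p = 0.0332), and was no longer called without control cTreg replicate 1 (0.0927) or 3 (0.129) or control eTreg replicate 1 (0.073), 2 (0.133) or 3 (0.0593). Il2ra had 1 of 13 less accessible, and Ikzf4, Tnfrsf18, Capg and Foxp3 had no call in 4, 5, 8 and 1 regions.

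Among costimulatory and inhibitory receptors, 18 of 157 regions (11.5%) were less and 4 (2.55%) more accessible, or 32 and 4 with the replicate block, and the direction varied among receptors. Cd28, the main costimulatory receptor, had 6 of 15 less accessible and 0 more. Its strongest region, 32.4 kb upstream, had 11.7, 8.14 and 9.81 CPM in cTregs and 0.651, 0.0 and 0.36 CPM in eTregs (log2 fold change -4.79 ± 0.779 SE, adjusted p = 0.000725). With eTreg values near 0, that fitted fold change is not a precise size. The Cd28 promoter had 55.2, 47.9 and 57.5 CPM against 27.6, 36.7 and 33.2 CPM (log2 fold change -0.71 ± 0.176 SE), a call lost without control cTreg replicate 1 (adjusted p = 0.0764) or 3 (0.06) or control eTreg replicate 1 (0.0993). Cd226, an activating receptor that shares ligands with TIGIT, had 4 of 26 less and 1 more accessible, the strongest at 52.3, 53.4 and 46.4 CPM against 15.0, 14.2 and 13.3 CPM (log2 fold change -1.85 ± 0.208 SE, adjusted p = 1.44e-05). Tigit, an inhibitory receptor, had 1 of 21 regions more accessible, in its own intron, at 5.87, 9.33 and 4.46 CPM against 25.0, 24.9 and 27.8 CPM (log2 fold change 1.94 ± 0.305 SE, adjusted p = 0.000438). Its promoter had 76.3, 87.1 and 60.6 CPM against 60.5, 75.6 and 74.8 CPM, so the states overlapped at the promoter and were apart in the intron. Pdcd1, which encodes PD-1, had 1 of 12 more accessible, an intron region at 2.93, 5.27 and 2.68 CPM against 13.0, 16.3 and 13.9 CPM (log2 fold change 1.94 ± 0.448 SE, adjusted p = 0.0108, and 0.0776 without control cTreg replicate 1). Icos had 2 of 30, Lag3 1 of 6 and Btla 1 of 10 less accessible, and Havcr2 and Cd96 had no call in 6 and 7 regions, or 1 less accessible region each with the replicate block.

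**Figure D4:**
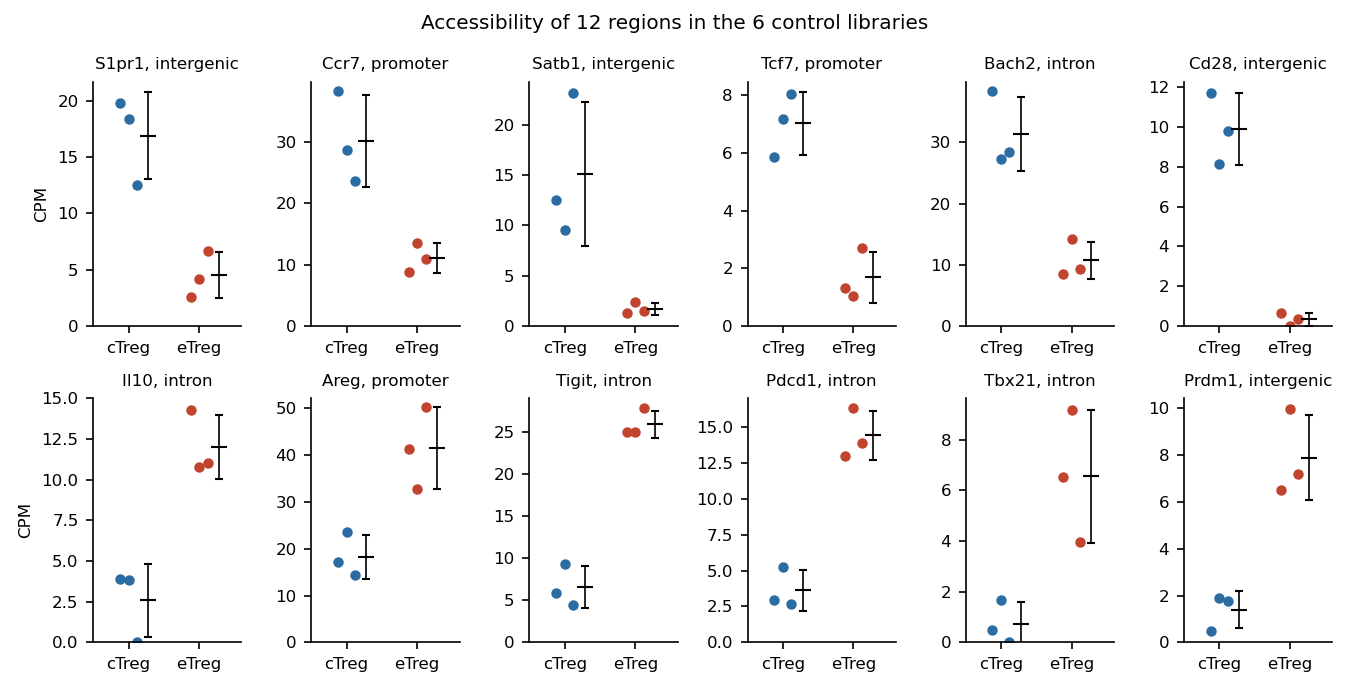
Each panel shows CPM (y axis, from 0) of a single region in the 3 control cTreg libraries (blue) and the 3 control eTreg libraries (red), ordered by replicate number, with the mean and SD beside them. The top row holds regions that were less accessible in eTregs and the bottom row regions that were more accessible. In all 12 the libraries of the 2 states do not overlap, as in 97.7% of regions called less and 98.9% of regions called more accessible. Among all tested regions the eTreg libraries lay below in 13.9% and above in 12.2%.

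Suppressive and repair molecules had 9 of 105 regions (8.57%) more and 6 (5.71%) less accessible, with a median log2 fold change of 0.01. With the replicate block the order turned, to 10 more and 14 less accessible. Il10 accounted for 5 of the 9. The 5 called regions among its 13 ran over 45.5 kb (chr1:130993649-131039146) from upstream of the gene to beyond it, with log2 fold changes from 0.77 to 2.05, and 4 of them were also called in Atg14-deficient cells. The strongest, in an Il10 intron 1.82 kb from the start and printed above with its AP-1 match, had 3.91, 3.83 and 0.0 CPM in cTregs and 14.3, 10.8 and 11.0 CPM in eTregs (log2 fold change 2.05 ± 0.488 SE, adjusted p = 0.0123, and 0.059 without control eTreg replicate 1). A region 9.15 kb upstream had 5.38, 12.7 and 2.23 CPM against 20.8, 22.3 and 19.5 CPM (log2 fold change 1.53 ± 0.364 SE). Areg, which encodes the repair factor amphiregulin, had its promoter more accessible at 17.1, 23.5 and 14.3 CPM against 41.3, 32.8 and 50.3 CPM (log2 fold change 1.16 ± 0.253 SE, adjusted p = 0.0063). Lrrc32, which encodes the TGF-beta docking receptor GARP, had 1 of 23 more and 3 less accessible, the strongest at 18.6, 23.0 and 17.4 CPM against 3.90, 7.35 and 7.93 CPM. Nt5e, the ectoenzyme CD73, had 1 of 15 more and 2 less accessible, Fgl2 had 1 of 10 more and Itgb8 1 of 10 less accessible. Tgfb1, Ebi3, Entpd1, Gzmb, Lgals1 and Furin had no call in 2, 1, 10, 8, 4 and 5 regions, and 1 Furin region was less accessible with the replicate block.

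Surface genes of terminal and tissue eTregs had 2 of 71 regions more and 1 less accessible (2.82% and 1.41%), and their median log2 fold change was 0.30. With the replicate block 9 were more and 3 less accessible. Both more accessible regions of the fit without the block belonged to Il1r2, the decoy receptor for IL-1, whose promoter had 8.07, 8.38 and 3.57 CPM in cTregs and 17.2, 14.7 and 17.1 CPM in eTregs (log2 fold change 1.24 ± 0.335 SE, adjusted p = 0.0273). That call was lost without control cTreg replicate 1 (0.0706) or 3 (0.128) or control eTreg replicate 1 (0.0906), 2 (0.0512) or 3 (0.0721). Klrg1, a marker of terminal eTregs, had 0 of 9 regions called without the block, 4 more accessible with it, and a median log2 fold change of 1.09. At its region 11.1 kb upstream the values were 17.4, 23.0 and 12.5 CPM against 37.7, 47.2 and 30.5 CPM (log2 fold change 1.09 ± 0.414 SE, adjusted p = 0.145), and at a region 12.5 kb downstream of the start 0.978, 12 and 1.78 CPM against 13.0, 17.8 and 8.29 CPM, where control cTreg replicate 2 lay within the eTreg range. Il1rl1, which encodes ST2, had 0 of 10 called without the block and 1 more accessible with it. The less accessible region was nearest to Cd83.

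Antigen-receptor-induced genes had 26 of 263 regions less accessible (9.89%) and 2 more accessible (0.76%), or 39 and 9 with the replicate block. Tox, an HMG-box factor, held 12 of the 26, its promoter among them at 73.6, 57 and 76.7 CPM in cTregs and 32.9, 32.0 and 45.4 CPM in eTregs (log2 fold change -0.89 ± 0.178 SE, adjusted p = 0.00337). Cd69, an early activation marker that retains cells in tissue, had 4 of 16 less accessible, and its promoter had 46.4, 61.7 and 59.7 CPM against 38.4, 38.1 and 37.5 CPM (log2 fold change -0.56 ± 0.149 SE, adjusted p = 0.0258). This last call was lost without control cTreg replicate 2 (0.0951) or 3 (0.0907) or control eTreg replicate 1 (0.0835), 2 (0.074) or 3 (0.0744). Nfatc1 had 2 of 34, and Nr4a3, Egr2 and Egr3 had 1 each less accessible of 10, 11 and 9. Myc, whose surroundings hold 59 tested regions, had 2 more and 1 less accessible. Nr4a1, Nr4a2, Egr1 and Nfatc2 had no call in 7, 5, 9 and 21 regions, and with the replicate block 2 Nr4a1 regions were less and 1 Nr4a2 region more accessible.

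The AP-1 family, whose motif differed in share between the directions, had 2 of 84 regions more and 3 less accessible (2.38% and 3.57%), all nearest to Jun except 1 less accessible region nearest to Fos. Integrins had 1 of 93 more (Itga1, 2.93, 14.1 and 3.57 CPM against 21.1, 29.9 and 17.5 CPM; adjusted p = 0.0224, and 0.129 or 0.093 without control cTreg replicate 1 or 3 and 0.0584 or 0.0966 without control eTreg replicate 1 or 2) and 4 less accessible, among them 2 of 19 near Itga4, and with the replicate block 5 more and 8 less accessible. Chemoattractant receptors other than Ccr7, which was counted with the homing genes, had 0 of 111 regions called by edgeR (16, or 14.4%, at an unadjusted p below 0.05, against 19.9% of all tested regions) and 1 by DESeq2, more accessible, while the replicate block called 2 more and 5 less accessible. The TNF receptor family had 2 of 39 less and 0 more accessible by edgeR (8 at an unadjusted p below 0.05 in either direction), 1 more accessible by DESeq2, and 4 less and 2 more accessible with the replicate block. Cell cycle genes had 0 of 37 regions called by edgeR (8 at an unadjusted p below 0.05) and 1 less accessible by DESeq2 and by the replicate block, and the median log2 fold change was 0.16. Autophagy and Vps34 complex genes had 2 of 56 more accessible, near Sqstm1 and Atg7, and 1 less accessible in an intron of Uvrag, and all 3 calls were lost without control cTreg replicate 1 (adjusted p = 0.166, 0.193 and 0.0804), among others. With the replicate block 6 autophagy regions were more and 2 less accessible. Housekeeping genes had 0 of 21 called by edgeR (2 at an unadjusted p below 0.05) and 0 by DESeq2, and 1 was more accessible with the replicate block. That block gave 2 more and 6 less accessible regions for the AP-1 family.

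**Figure D5:**
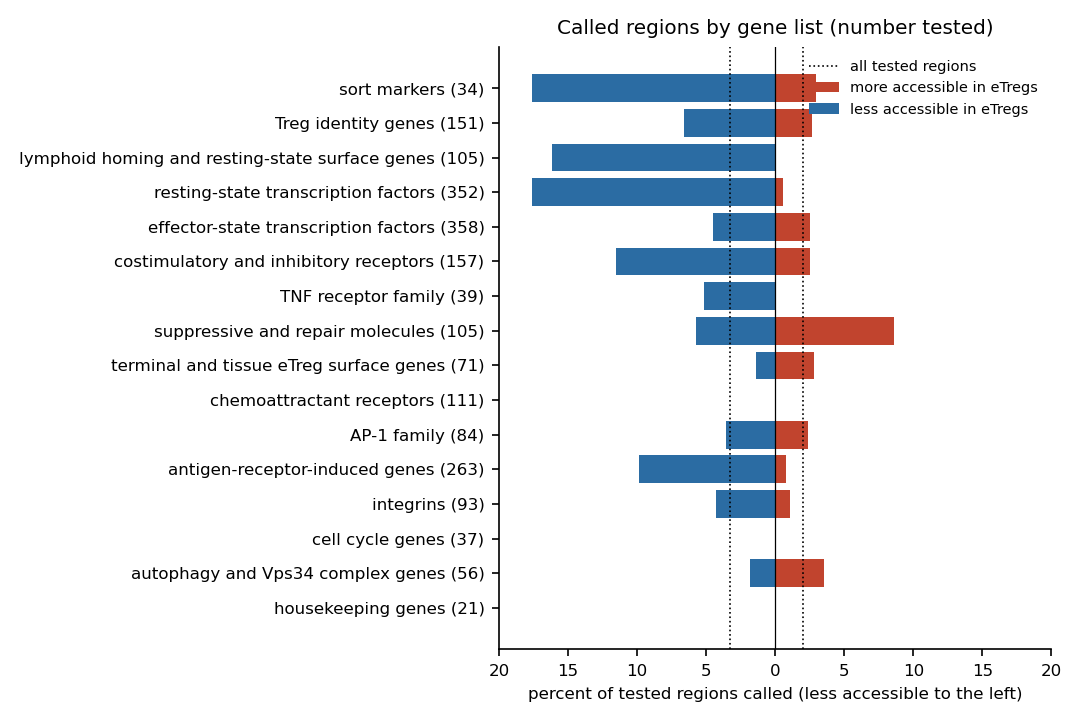
Bars give the percent of tested regions nearest to the genes of each group that were called less accessible (blue, to the left) or more accessible (red, to the right) in control eTregs, with the number of tested regions in brackets. Dotted lines mark all tested regions (3.29% and 2.01%). The resting-state transcription factors reach 17.6% to the left and the suppressive and repair molecules 8.57% to the right, in the fit without the replicate block. The groups were chosen with earlier results of these data known.

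Across all genes, 2118 were the nearest gene of at least 1 called region. Of the 596 with 2 or more, 337 had only less accessible, 117 only more accessible and 142 both kinds of regions. The 10 genes with the most less accessible regions were Satb1 (17 of 43), Cblb (14 of 56), Nrip1 (12 of 55), Tox (12 of 58), Btg1 (11 of 52), Foxp1 (11 of 55), Bach2 (10 of 53), Atp10a (9 of 52), Sox4 (9 of 29) and Pip4k2a (8 of 26). Cblb, a ubiquitin ligase that raises the threshold of T cell activation, had its strongest region at 31.0, 31.6 and 37.9 CPM in cTregs and 7.81, 6.30 and 9.73 CPM in eTregs (log2 fold change -2.05 ± 0.277 SE, adjusted p = 0.000136), and 10 of its 14 regions were also called in Atg14-deficient cells. Besides these 14, Cblb had 2 regions called more accessible. The promoter of Sox4, an HMG-box factor, had 73.1, 51.0 and 83.8 CPM against 25.7, 18.6 and 26.5 CPM (log2 fold change -1.54 ± 0.238 SE). Nrip1, a corepressor of nuclear receptors, had 29.8, 30.6 and 29.0 CPM against 7.81, 7.87 and 11.0 CPM at its strongest region, and Btg1, an anti-proliferative protein, 57.2, 46.9 and 48.2 CPM against 16.9, 22.6 and 22.5 CPM. In these 4 regions the states did not overlap, as in nearly all called regions.

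The 10 genes with the most more accessible regions had fewer each: Alcam (6 of 15), Arnt2 (5 of 9), Gxylt1 (5 of 15), Il10 (5 of 13), Rapgef5 (5 of 29), Cacng6 (4 of 5), Hapln1 (4 of 28), Prex1 (4 of 39), Ttc39c (4 of 7) and Xylt1 (4 of 27). Alcam encodes an adhesion molecule that binds CD6 on T cells. Its called regions span chr16:52292428-52879983, next to the less accessible regions of Cblb (chr16:51675042-52182404). The strongest had 5.13, 12.4 and 4.46 CPM in cTregs and 20.5, 23.6 and 19.5 CPM in eTregs (log2 fold change 1.47 ± 0.306 SE, adjusted p = 0.0045, and 0.0546 without control cTreg replicate 1). Gxylt1, a xylosyltransferase that modifies Notch, had 4.40, 6.70 and 4.46 CPM against 26.0, 34.6 and 20.7 CPM (log2 fold change 2.35 ± 0.343 SE, adjusted p = 0.00021). Arnt2, a bHLH-PAS factor, had a median log2 fold change of 1.89 over its 9 regions, and 1 of its 5 called regions was also called in Atg14-deficient cells. None of the 10 genes had a less accessible region.

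By p-value, the strongest more accessible regions had every eTreg library above every cTreg library by the rule that chose them. The region in an intron of Cc2d2a with Fbxl5 as its nearest gene had 19.1, 19.1 and 16.9 CPM in cTregs and 78.7, 55.9 and 73.4 CPM in eTregs (log2 fold change 1.90 ± 0.207 SE, adjusted p = 1.44e-05). Galnt2, an enzyme of mucin-type O-glycosylation, had an intron region at 22.5, 26.8 and 18.7 CPM against 68.3, 88.7 and 66.1 CPM (log2 fold change 1.69 ± 0.192 SE). Lmnb1, which encodes lamin B1, had one at 28.4, 22.5 and 19.6 CPM against 80.0, 62.5 and 78.0 CPM. Promoters among the 10 were those of Pcyox1l (50.3, 59.8 and 43.7 CPM against 129, 112 and 138 CPM), Asb1 (53.8, 58.6 and 58.0 CPM against 112, 104 and 110 CPM) and Farp1 (7.82, 10.1 and 6.24 CPM against 30.9, 34.6 and 28.8 CPM). The others lay near Cpeb2, Rfx4 and Rassf6 and on the unplaced scaffold, and all 10 were also called more accessible in Atg14-deficient eTregs.

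The strongest less accessible regions, chosen likewise, began with an intron of St8sia1, the ganglioside GD3 synthase, at 25.4, 27.3 and 22.3 CPM in cTregs and 2.60, 5.25 and 3.24 CPM in eTregs (log2 fold change -2.75 ± 0.307 SE, adjusted p = 1.44e-05). The Cd226 region given above followed. An intron of Manba, a lysosomal mannosidase, had 27.4, 20.3 and 29.4 CPM against 2.60, 5.25 and 2.52 CPM (log2 fold change -2.89 ± 0.338 SE, adjusted p = 2.14e-05). A region 57 kb from Spsb1 had 7.33, 10.5 and 6.24 CPM in cTregs and no count in any eTreg library, which makes it at least 34.7-fold lower against a floor of 3 counts over the 3 eTreg libraries. Most counts in the table are even numbers, and if both mates of a read pair were counted this bound is too high. An intron of Map7 had 12.7, 7.66 and 12.5 CPM against 0.651, 0.525 and 1.08 CPM (log2 fold change -3.72 ± 0.494 SE). The others lay in introns of Mfhas1, Cblb and Kif1b and near Adamts20 and Sgpp1. All 10 were also called less accessible in Atg14-deficient eTregs, and none of the 20 regions lost its call when any of the 6 libraries was left out.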

How the data were processed

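The deposited table holds raw counts of nucleosome-free ATAC-seq reads in 67254 merged regions for 14 libraries, without normalization. The authors trimmed and aligned the reads (BWA), shifted read ends for the transposase, called peaks with MACS2, merged those present in at least 50% of replicates and counted with bedtools. The submitters' processing notes name cutadapt 1.9, Picard 1.65 and MACS2 2.1.0.20150603. Methods and notes name different genomes. All 67207 regions on chromosomes lie inside GRCm38, and 16069 of 41408 protein-coding transcript starts lie within 200 bp of a region centre (807 after a shift of 20000 bp), so GRCm38 and GENCODE protein-coding starts were used. 82.0% of the counts are even numbers, so halved counts were among the alternatives. Starts are printed counted from 1.

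Columns were matched to groups by their labels. Libraries were scaled by total counts, regions kept by edgeR's filterByExpr, and edgeR's robust quasi-likelihood model was fitted to all 14 libraries in 4 groups (biological coefficient of variation 25.6%). Calls needed a Benjamini-Hochberg adjusted p under 0.05 together with a change of more than 0.5 on the log2 scale. SE is the fold change divided by the root of F. In simulated counts for the control comparison, 157 of 200 regions changed 4-fold were recovered, with 3 false calls among 58577 regions. Control replicates differed beyond sampling noise (chi-square per degree of freedom 2.55 to 4.35). Total counts were 2242983–5548189, which limits precision at weak regions, as does n = 3.

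Genes named are those of fixed lists (their promoter region with the highest mean count and their called region with the smallest p), the 10 regions per direction with the smallest p and no overlap between states, and the 10 genes per direction with the most called regions. The Klf2 region 157 bp from its start, the 2 Klrg1 regions and the second Il10 region were added after their values were seen. Members and lists were chosen with earlier results of these data known. Alternatives were TMM, DESeq2 size factors, loess and GC-content loess offsets, other filters and cutoffs, the DESeq2 Wald test, 2 groups only, a replicate block, the promoter share as covariate, halved or thinned counts, each control library left out, a promoter window of 500 bp and a motif window of 100 bp. Software was R 4.3.3, edgeR 4.0.16, limma 3.58.1, DESeq2 1.42.0 and Python with pandas, NumPy, SciPy and matplotlib. A few items are not reported here. The block rests on the study's number of chimeras per genotype and on the labels' replicate numbers. Deviations of same-numbered libraries correlated at r = 0.0543, 0.209 and 0.19 in control cells and 0.119, 0.243, 0.14 and 0.225 in Atg14-deficient cells. The planned fit without the block was kept as the main one.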

Additional observations from a re-analysis of the deposited data

How the results depend on the processing

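Called regions numbered 3251. At least 10 counts in every library, which leaves fewer regions to test, gave 1740 (604 more and 1136 less accessible), the promoter share as a covariate 6760 (3492 and 3268), and the control libraries left out in turn 1105 to 3745 (400 to 1788 more and 705 to 1957 less accessible). The percent more accessible was 38.0, and 39.8 with TMM, 43.8 with DESeq2 size factors, 42.7 with loess and 46.1 with GC-content loess offsets, 34.7 with at least 10 counts, 43.7 with the DESeq2 Wald test, 41.7 with 2 groups only, 51.7 with the covariate, 39.7 with halved and 40.1 with thinned counts, and 29.3 to 47.7 with a library left out. Promoters were 8.49% of the more and 7.92% of the less accessible regions with GC-content offsets, 23.3% and 9.07% with at least 10 counts, 7.49% and 3.52% at a log2 cutoff of 1, 9.59% and 7.77% with the covariate, and 10.9% to 16.1% and 4.58% to 7.85% with a library left out. The Atg14-deficient comparison gave 3483 regions with at least 10 counts and 10765 with the covariate (5401 to 6587 with a control library left out). The percent of control calls shared with it was 65.2 with at least 10 counts, 56.1 at a cutoff of 1, 57.2 with 2 groups only, 69.2 with the covariate, 65.0 with halved counts and 58.4 to 74.5 with a library left out. The difference in promoter counts was 0.953 percentage points, turned to -0.0288 without control cTreg replicate 2, and ranged up to 2.26. Where no value is named for it, the cause was not tested.

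Both states came from the same chimeras per genotype. Same-numbered libraries deviated together, with r from 0.0543 to 0.209 in 3 control pairs and from 0.119 to 0.243 in 4 Atg14-deficient pairs, and each control library correlated best with its own number. With the replicate block, 6367 regions were called (2868 more and 3499 less accessible, 45.0% more accessible, 12.2% of the more accessible at promoters), 9495 in Atg14-deficient cells, and 1 region, nearest to Epas1, for the difference between genotypes, named after its value was seen. The block kept the call of each of the 111 named called regions.

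Of 2069 values of 112 named regions under these alternatives, 1846 kept their direction and side of the threshold, 223 lost the call and 0 reversed. Of 111 named called regions, 60 kept the call with each library left out.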
